A study of Mus musculus with 8 samples.

Results

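The class I histone deacetylases of the mouse are 4 genes, Hdac1, Hdac2, Hdac3 and Hdac8. They were followed here in nephron progenitors sorted from the embryonic kidney, of which the mutant ones carried floxed alleles of Hdac1 and Hdac2. The members were all array probes whose RefSeq accession maps to one of the 4 symbols. This gave 7 of the 55681 probes on the array: 3 for Hdac1, 1 for Hdac2, 1 for Hdac3 and 2 for Hdac8. All 7 were well above background in Cy5 on all 8 arrays, and none was saturated on any array. They were therefore all among the 30364 probes kept after the filter on dim probes.

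Class I histone deacetylases remove acetyl groups from lysines of histones and other proteins. Hdac1 and Hdac2 are close paralogs that serve as the catalytic subunits of the Sin3, NuRD, CoREST and MiDAC co-repressor complexes. Hdac3 is the catalytic subunit of complexes built on NCoR co-repressors, and Hdac8 acts outside these complexes and deacetylates the cohesin subunit Smc3. Nephron progenitors are the self-renewing cells of the cap mesenchyme, from which the epithelium of the nephron forms.

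Mutant cells, with the genotype Six2CreEGFP+; HDAC1&2 f/f, were set against wildtype cells of the genotype Six2CreEGFP+; HDAC1&2 +/+, both in strain C57BL/6 at embryonic day 15.5. Both groups thus carried the transgene in which Six2 sequences drive Cre and a green fluorescent protein, and green cells were sorted from the kidneys, so that cells sorted by the promoter that drives Cre were compared. Each group had 4 pools, and each pool was labelled with Cy5 and hybridised on a two-colour array whose Cy3 channel held RNA of wildtype pool 1. On the array of wildtype pool 1 both dyes thus came from one RNA. The labels call the pools biological replicates but do not say which embryos went into which pool, and p-values measure the spread between these samples, which may be partly technical.

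The measured quantity is the log2 ratio of Cy5 over Cy3 after background correction and normalization within each array. In each group pools 3 and 4 were as alike as repeated measurements of one RNA, so they were averaged, which left 3 mutant and 3 wildtype samples. Over 22662 genes with 1 probe each, 10 passed an adjusted p of 0.05 in the limma fit (0.0441%), and 34 passed in a fit that also had the pool number as a block (0.15%). On the wildtype 2 array 48627 probes were well above background in Cy5, against 28150 to 33982 on the others. Different probes of one gene diverged most on the mutant 1 array, with a median log2 SD of 0.245 over 3916 genes, where the other arrays had 0.0826 to 0.142. All 10 nephron progenitor markers were above background on all 8 arrays, including Six2 and Eya1, transcriptional regulators that maintain the progenitors. Six2 differed by -0.13 ± 0.14 and Eya1 by 0.05 ± 0.10 (log2, mutant minus wildtype, SE of the limma fit, neither passing the test). Of the 10 markers 8 had lower means in mutant samples, with a median of -0.23, and 1 of them, Cited1, passed the test, as given beside the other markers.

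No probe of the 4 genes passed the threshold (0 of 7, against 0.0263% of all kept probes). The 3 Hdac1 probes alone had an unadjusted p under 0.05, as did 6.45% of kept probes. The 3 Hdac1 probes were lower in every mutant sample than in every wildtype sample, with mutant ratios at 67.4% to 81.4% of wildtype. Hdac2, the other floxed gene, differed by less than the spread between its mutant pools, and so did Hdac3 and Hdac8.

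Hdac1 is one of the floxed genes. On its probe with the highest Cy5 level, A_55_P1970775, the log2 ratio was -0.07, -0.14, -0.19 and -0.20 in mutant pools 1 to 4, against 0.20, 0.14, 0.18 and 0.12 in wildtype pools 1 to 4. Every mutant array was below every wildtype array. The mutant mean was -0.14 ± 0.06 and the wildtype mean 0.16 ± 0.03 (SD, n = 3 each). The difference was -0.30 ± 0.09 (SE, 95% interval -0.51 to -0.09), which places mutant cells at 81.4% of wildtype (interval 70.3% to 94.1%). It did not pass after Benjamini-Hochberg adjustment over all genes in limma (adjusted p = 0.475, unadjusted p = 0.0122), and its rank by p was 582.

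The second Hdac1 probe, A_66_P128384, read -0.63, -0.64, -0.70 and -0.67 in mutant pools 1 to 4, against -0.28, -0.21, -0.27 and -0.24 in wildtype pools 1 to 4. The groups were again separate, and the pools within each lay close together. The difference was -0.40 ± 0.09 (SE, 95% interval -0.61 to -0.19), or 75.7% of wildtype (interval 65.5% to 87.5%), with an adjusted p of 0.376 in limma. The third probe, A_55_P2077608, read -0.90, -0.38, -0.58 and -0.55 in mutant pools 1 to 4, against -0.06, -0.07, -0.01 and -0.0038 in wildtype pools 1 to 4. Here the mutant pools were spread widely, with pool 1 lowest and pool 2 highest, while the wildtype pools lay close to 0. The difference was -0.57 ± 0.14 (SE, 95% interval -0.90 to -0.23), or 67.4% of wildtype (interval 53.4% to 85.1%), with an adjusted p of 0.425 in limma.

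**Figure D1:**
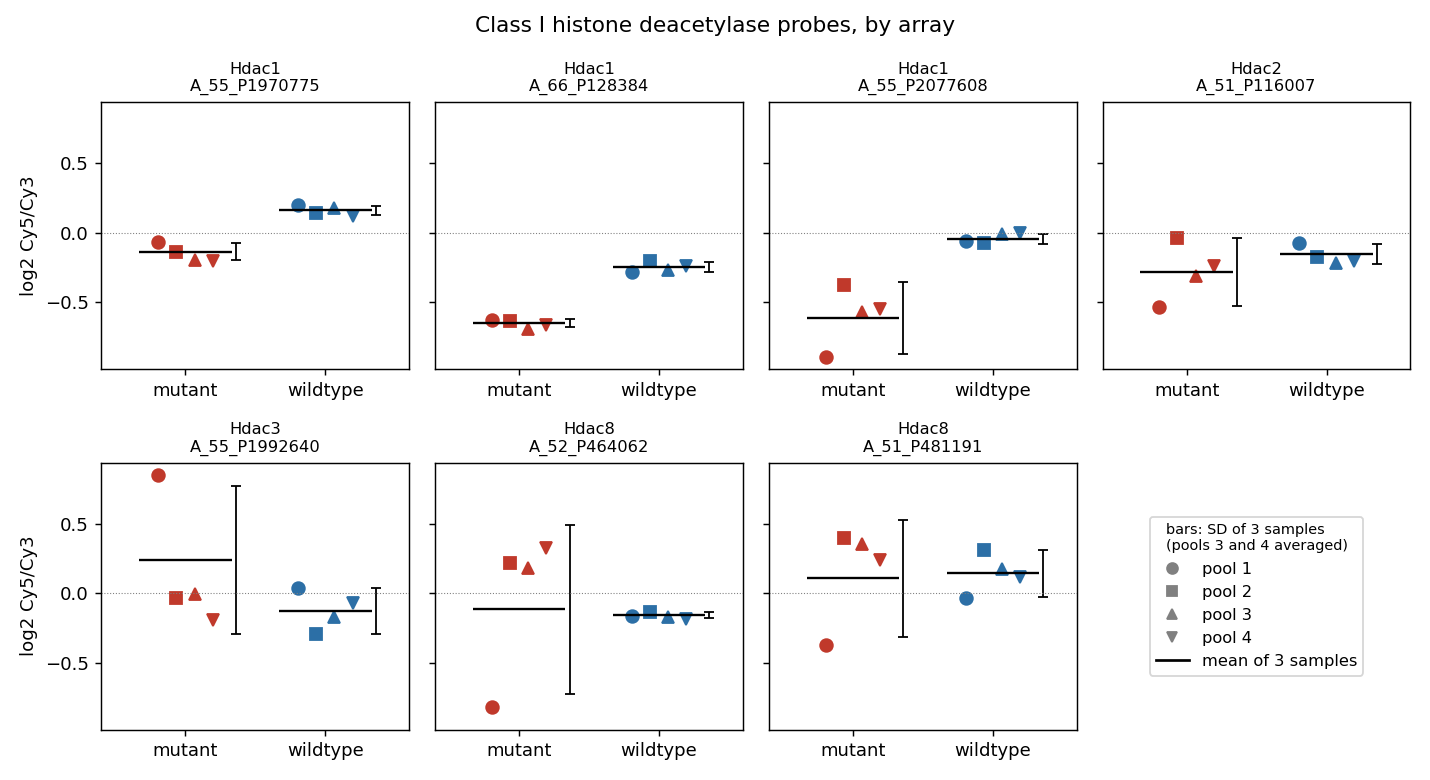
Log2 ratio of Cy5 over Cy3 (vertical axis) of each probe on each array, mutant arrays in red at the left of each panel and wildtype arrays in blue at the right, with the symbol giving the pool number, the line the mean and the bar the SD of 3 samples. The mutant arrays lie below the wildtype arrays on all 3 Hdac1 probes, and on the Hdac2, Hdac3 and Hdac8 probes mutant pool 1 lies apart from the other mutant pools.

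An exact permutation test of 3 against 3 samples, two-sided, gave p = 0.1 for each Hdac1 probe, the smallest value this design allows. Samples of the groups did not overlap on 3 of 3 Hdac1 probes, while every mutant sample was below every wildtype sample on 5.5% of all kept probes and for 5.85% of genes. In each of the 3 pairs of same-numbered pools the mutant sample had the lower Hdac1 ratio on every Hdac1 probe, a pattern that 16.4% of all kept probes had. The pair differences were -0.27, -0.28 and -0.35 on A_55_P1970775, -0.35, -0.43 and -0.43 on A_66_P128384, and -0.84, -0.31 and -0.56 on A_55_P2077608. The 3 probes read one gene in the same samples and are not independent of each other. Differences at least as low were found for 6.73%, 3.26% and 1.38% of all kept probes, in the order in which the Hdac1 probes are named above.

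The call on Hdac1 depended on how samples were counted. With all 8 arrays as separate samples, A_66_P128384 passed (adjusted p = 0.0265, where 0.837% of kept probes and 1.13% of genes passed), A_55_P2077608 gave 0.0522 and A_55_P1970775 gave 0.0631 in limma. With the 8 arrays as 4 pairs, A_66_P128384 (adjusted p = 0.0335) and A_55_P2077608 (adjusted p = 0.0453) passed and A_55_P1970775 gave 0.0527, where 2.21% of kept probes and 3.28% of genes passed. Both settings treat the near-identical pools 3 and 4 as independent. With centring of each array on its median in place of loess, the difference on A_55_P1970775 was -0.19, while the median over all genes was 0.07 in place of 0.0018. No Hdac1 probe then had an unadjusted p under 0.05 in limma. The values were 0.297 on A_55_P1970775, 0.105 on A_66_P128384 and 0.0625 on A_55_P2077608. Trend and robust estimation in limma gave unadjusted p of 0.0091, 0.061 and 0.0141 in the same order.

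The ratio combines both dyes, so each dye was also examined alone, as a log2 level after normalization across arrays. The Cy5 level of A_55_P1970775 was 14.97, 14.84, 14.79 and 14.79 in mutant pools 1 to 4, against 15.11, 15.20, 15.13 and 15.10 in wildtype pools 1 to 4. That of A_66_P128384 was 11.50, 11.49, 11.31 and 11.40 in mutant pools 1 to 4, against 11.77, 11.65, 11.68 and 11.75 in wildtype pools 1 to 4. On both probes every mutant array was below every wildtype array in Cy5 alone. Every mutant sample was below every wildtype sample in Cy5 on 3.76% of kept probes. On A_55_P2077608 the groups overlapped in Cy5, since mutant pool 2, at 10.53, was above wildtype pool 2, at 10.39.

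The differences in the Cy5 level were -0.28 ± 0.11, -0.26 ± 0.12 and -0.35 ± 0.20 (SE), in the order A_55_P1970775, A_66_P128384 and A_55_P2077608. None passed in limma, with adjusted p of 0.754, 0.768 and 0.768, where 0.00441% of genes passed. The Cy3 channel held one RNA on every array, and its level differed between mutant and wildtype arrays by 0.02 ± 0.06, 0.14 ± 0.07 and 0.22 ± 0.09 (SE) on the same probes. On the brightest probe nearly all of the ratio difference was in Cy5. On A_66_P128384 and A_55_P2077608 the ratio difference was larger than the Cy5 difference, by the amount that Cy3 was higher on the mutant arrays. The Cy3 differences did not pass either (adjusted p = 0.849, 0.613 and 0.613, with 0% of genes passing). On A_55_P2077608 every mutant sample was above every wildtype sample in Cy3 (exact permutation p = 0.1). By array the gap was small, with 10.7236 in mutant pool 3 and 10.723 in wildtype pool 1. On this probe and on A_66_P128384, Cy3 was higher in the mutant sample of every pair. The share of all kept probes with either Cy3 pattern was not counted.

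**Figure D2:**
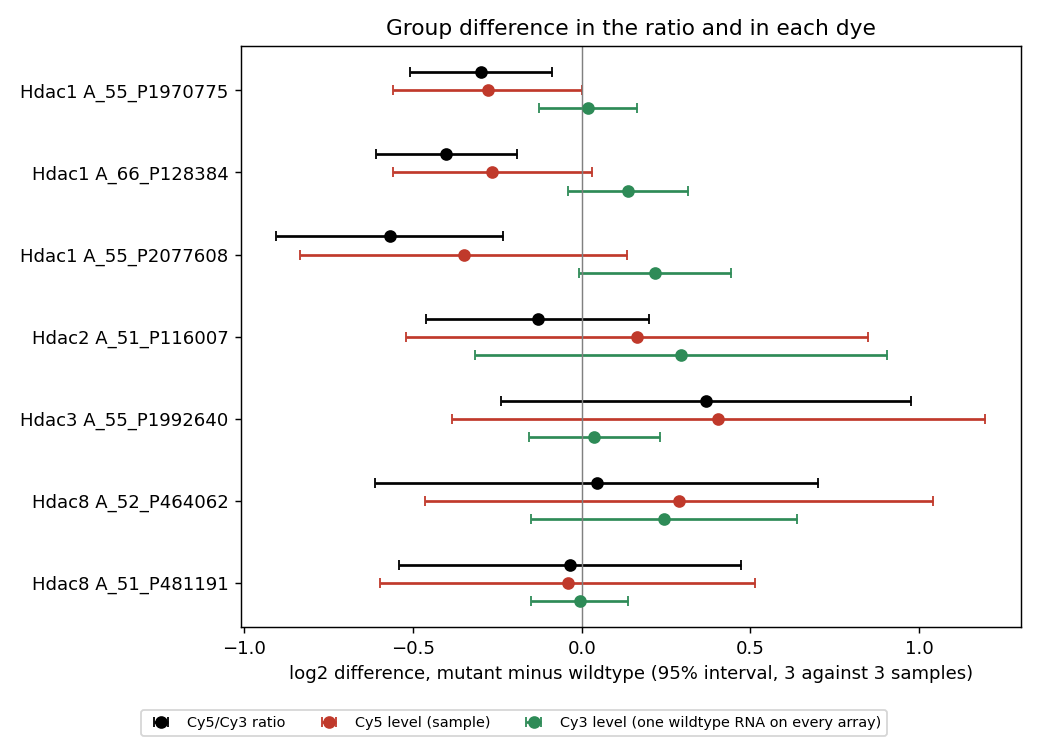
Difference between mutant and wildtype (horizontal axis, log2, mutant minus wildtype) of each probe in the ratio (black), in the Cy5 level (red) and in the Cy3 level (green), with bars for the 95% interval of the limma fit over 3 against 3 samples. For the 3 Hdac1 probes the ratio intervals lie below 0, the Cy5 intervals end at or above 0, and the Cy3 differences are between 0.02 and 0.22.

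On the array that carried wildtype pool 1 RNA in both dyes, the 3 Hdac1 probes read 0.20, -0.28 and -0.06 in the order above. A ratio of 0 is therefore not the wildtype level of a given probe, and only differences between arrays are compared. The probes also differed from each other in the size of their mutant difference. A_55_P1970775 minus A_66_P128384 was 0.51 ± 0.04 in mutant and 0.41 ± 0.07 in wildtype samples (SD, n = 3 each), a gap of 0.10 (exact permutation p = 0.1, adjusted p = 0.45 over 9 comparisons of probes). The gap between A_55_P1970775 and A_55_P2077608 was 0.27 (exact permutation p = 0.2, adjusted p = 0.562). The gap was 0.57 in the pair of pool 1, 0.03 in the pair of pool 2 and 0.21 in that of pools 3 and 4, so that pool 1 held most of it.

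The position of the Hdac1 and Hdac2 probes with respect to the deleted exons was not analysed here. A probe outside the deleted stretch can bind a transcript that lacks it, so these values are no measure of how complete the deletion was. RefSeq also lists a pseudogene of Hdac1, Hdac1-ps, and whether any probe also binds its transcript was not analysed here. In bulk RNA of sorted cells, fewer cells with a transcript and less transcript per cell cannot be told apart.

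Hdac2, the second floxed gene, was read by probe A_51_P116007 in 10 spots per array. Its log2 ratio was -0.54, -0.04, -0.31 and -0.24 in mutant pools 1 to 4, against -0.07, -0.18, -0.22 and -0.20 in wildtype pools 1 to 4. Mutant pool 1 was lowest and mutant pool 2 highest of all 8 arrays, and the groups overlapped. The spots within an array had an SD of 0.0606 to 0.109, which leaves out the variation between labellings, arrays and pools. The mutant mean was -0.28 ± 0.25 and the wildtype mean -0.15 ± 0.07 (SD, n = 3 each).

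The Hdac2 difference was -0.13 ± 0.14 (SE, 95% interval -0.46 to 0.20), or 91.4% of wildtype with an interval of 72.7% to 115%. It did not pass in limma (adjusted p = 0.84) or in the exact permutation test (p = 0.5). This interval includes the differences measured on the Hdac1 probes A_55_P1970775 and A_66_P128384. The pair of pool 1 differed by -0.46, that of pool 2 by 0.14 and that of pools 3 and 4 by -0.06, so the pairs did not share a direction. Without mutant pool 1 the difference was -0.0043, and with the replicate block and without the pair of pool 1 it was 0.036.

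In the single dyes Hdac2 differed by 0.16 ± 0.28 in Cy5 and by 0.30 ± 0.24 in Cy3 (SE), both higher on mutant arrays and neither passing the test. After normalization wildtype pool 2 was low in both dyes, at 7.84 in Cy5 and 8.02 in Cy3. The other 7 arrays read 8.37 to 8.84 in Cy5 and 8.81 to 8.91 in Cy3. Before background correction wildtype pool 2 had the highest signals of the 8 arrays, 796 in Cy5 and 392.25 in Cy3. The other 7 arrays then had 293.75 to 589 in Cy5 and 270 to 333.5 in Cy3. Without the wildtype 2 array the Cy5 difference was -0.12. The Hdac1 difference minus the Hdac2 difference was -0.17 (exact permutation p = 0.4).

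Hdac3 was not targeted, and its probe A_55_P1992640 read 0.86, -0.03, -0.0048 and -0.20 in mutant pools 1 to 4, against 0.04, -0.30, -0.17 and -0.07 in wildtype pools 1 to 4. Mutant pool 1 stood far above every other array, and the other mutant pools lay within the wildtype range. The mutant mean was 0.24 ± 0.53 and the wildtype mean -0.13 ± 0.17 (SD, n = 3 each). The difference was 0.37 ± 0.26 (SE, 95% interval -0.24 to 0.97), or 129% of wildtype with an interval of 84.7% to 197% (adjusted p = 0.816 in limma, exact permutation p = 0.4). Without mutant pool 1 it was 0.06 (adjusted p = 0.926), and without mutant pool 1 and wildtype pool 2 it was -0.026. The same array carried the difference in Cy5, where mutant pool 1 read 11.49 and the other 7 arrays 10.11 to 10.62, while in Cy3 its 10.63 lay within the 10.40 to 10.65 of the others.

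Hdac8, also untargeted, was read by 2 probes. Probe A_52_P464062 read -0.82, 0.22, 0.19 and 0.33 in mutant pools 1 to 4, against -0.16, -0.14, -0.17 and -0.18 in wildtype pools 1 to 4. Mutant pool 1 was below all wildtype arrays and the other 3 mutant pools were above all of them, while the wildtype pools hardly differed. Probe A_51_P481191 was the dimmest member probe, with a mean log2 Cy5 level of 7.44, against 8.52 to 14.99 on the others. It read -0.37, 0.40, 0.36 and 0.24 in mutant pools 1 to 4, against -0.03, 0.32, 0.18 and 0.12 in wildtype pools 1 to 4. Mutant pool 1 was again lowest, and the other mutant pools overlapped with the wildtype pools.

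The Hdac8 differences were 0.04 ± 0.28 (SE, 95% interval -0.61 to 0.70) on A_52_P464062 and -0.03 ± 0.21 on A_51_P481191, with adjusted p of 0.979 and 0.981 in limma. Without mutant pool 1 they were 0.40 ± 0.08 (adjusted p = 0.277) and 0.21 (adjusted p = 0.705). In the pair of pool 1 Hdac8 was lower in the mutant sample, by -0.66 and -0.34 on the named probes. In the pairs of pool 2 and of pools 3 and 4 it was higher, by 0.35 and 0.44 on A_52_P464062 and by 0.09 and 0.15 on A_51_P481191. The sign also turned when other arrays were left out: A_52_P464062 was -0.12 without mutant pool 2 and -0.14 without mutant pools 3 and 4, and A_51_P481191 was 0.05 without wildtype pool 2.

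**Figure D3:**
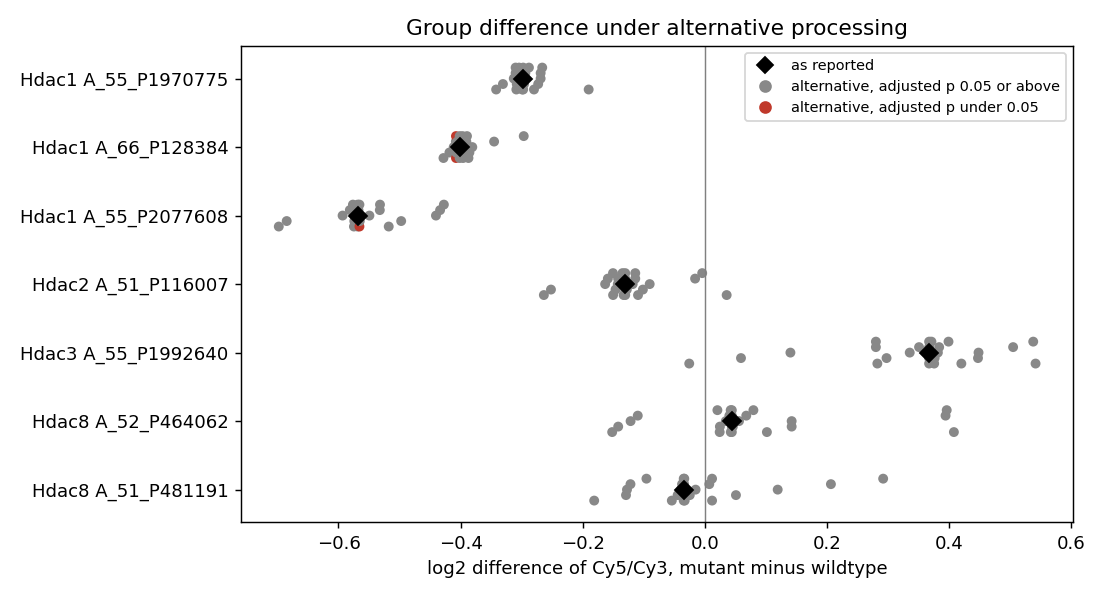
Difference in the ratio (horizontal axis, log2, mutant minus wildtype) of each probe as reported (black diamond) and under each alternative processing or choice of arrays (grey, or red where the adjusted p was under 0.05). The Hdac1 probes lie below 0 throughout, with ranges of -0.34 to -0.19, -0.43 to -0.30 and -0.70 to -0.43 from top to bottom, while the Hdac2, Hdac3 and Hdac8 probes cross 0.

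The group difference of Hdac1 on its brightest probe was set against those of Hdac3 and Hdac8 on theirs. Hdac1 minus Hdac3 differed by -0.66 (exact permutation p = 0.1, adjusted p = 0.45 over the 9 comparisons) and was negative in all 3 pairs, at -1.09, -0.54 and -0.37. Hdac1 minus Hdac8 differed by -0.34 (exact permutation p = 0.4) and was 0.39 in the pair of pool 1, against -0.63 and -0.78 in the others. Hdac1 was thus lower relative to Hdac3 in each pair, and lower relative to Hdac8 in the pairs other than that of pool 1. With 3 against 3 samples none of the 9 comparisons could reach a p under 0.1, so these values describe the samples and settle no difference between members.

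Partners and related genes were taken as 8 lists of 84 genes. These were subunits that hold class I deacetylases in their complexes, cohesin and its regulators, the other deacetylases and the inhibitors of cyclin-dependent kinases. Of these, 82 were measured, all above background in Cy5 on all 8 arrays. The 2 others were Chd3, a NuRD remodeller with no probe matched, and the inhibitor Cdkn2a, whose probe did not pass the filter. None of the 82 passed (0.0441% of all genes did), with or without the replicate block. Their means were higher in mutant samples for 43 and lower for 39, with a median difference of 0.01 against 0.0018 over all genes. An unadjusted p under 0.05 was reached by 4 of them (4.88%, against 7.24% of all genes). These were Sin3a, Sap130, Hdac6 and Cdkn2d.

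For the complexes that hold Hdac1 and Hdac2, the median difference was 0.03 over the 17 Sin3 genes, -0.03 over 12 NuRD genes, 0.06 over 12 CoREST genes and -0.0095 over 6 genes of the MiDAC list, which also holds the MIER scaffolds. Sin3a, the scaffold of the Sin3 complex, read 0.13, -0.11 and 0.07 in mutant samples, against -0.26, -0.33 and -0.26 in wildtype samples. The difference was 0.31 ± 0.10 (SE, adjusted p = 0.524 in limma). Sap130, another Sin3 subunit, read 0.40, 0.09 and 0.20 in mutant samples, against -0.06, -0.10 and -0.06 in wildtype samples, a difference of 0.30 ± 0.11 (SE, adjusted p = 0.586). The second scaffold, Sin3b, differed by 0.17 ± 0.09.

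Among NuRD subunits the remodelling ATPase Chd4 differed by 0.07 ± 0.16, and the scaffolds Mta1 and Mta2 by -0.28 ± 0.27 and -0.0035 ± 0.10 (SE). The mutant values of Mta1 were -0.70, 0.29 and 0.23, so that mutant pool 1 was again apart from the other mutant samples. The histone chaperones Rbbp4 and Rbbp7, which Sin3 and NuRD share, differed by -0.11 ± 0.10 and -0.13 ± 0.09. In CoREST the scaffold Rcor1 differed by 0.18 ± 0.14 and the lysine demethylase Kdm1a by 0.04 ± 0.09. The MiDAC scaffold Mideas differed by 0.18 ± 0.16. None of these genes passed the test.

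For the partners of Hdac3, all 6 measured genes of the NCoR list had lower means in mutant samples, with a median of -0.07, and none passed. With median centring in place of loess 3 of the 6 were lower. The co-repressor Ncor1 read -0.71, -0.11 and -0.10 in mutant samples, against -0.06, 0.01 and 0.10 in wildtype samples, a difference of -0.33 ± 0.18 (SE, adjusted p = 0.779). Mutant pool 1 was lowest here too. The complex subunit Tbl1xr1 differed by -0.11 ± 0.09.

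For Hdac8, the 11 genes of cohesin and its regulators had a median of -0.07, with 4 higher and 7 lower. Smc3, the cohesin subunit that Hdac8 deacetylates, read -0.47, 0.10 and -0.01 in mutant samples, against -0.01, 0.14 and -0.02 in wildtype samples, a difference of -0.16 ± 0.16 (SE, adjusted p = 0.834). As with Hdac8, the low mutant value was that of pool 1. Esco1, an acetyltransferase that acts on Smc3, differed by 0.53 ± 0.26 (SE, adjusted p = 0.753). It read 0.54, 0.04 and -0.01 in mutant samples, against -0.08, -0.90 and -0.05 in wildtype samples. Mutant pool 1 was thus highest and wildtype pool 2 lowest, while the other samples lay close together.

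The other deacetylases comprised the class II and IV genes and the sirtuins, 14 in all, of which 10 had higher means in mutant samples, with a median of 0.06. The largest difference was that of Hdac6, a mostly cytoplasmic tubulin deacetylase, which read 0.60, 0.24 and 0.32 in mutant samples, against 0.04, 0.04 and 0.15 in wildtype samples. It differed by 0.31 ± 0.12 (SE, adjusted p = 0.646). The class IIa genes Hdac4, Hdac5, Hdac7 and Hdac9, which are known for recruiting Hdac3 complexes, differed by 0.20, 0.16, 0.09 and 0.17. The class IIb gene Hdac10 differed by 0.03 and the class IV gene Hdac11 by -0.11. No deacetylase outside class I thus passed the test in either direction.

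Cdkn1a, which encodes the cell cycle inhibitor p21 and is a known target of repression by Hdac1 and Hdac2, read 0.18, -0.35 and 0.17 in mutant samples, against 0.05, -0.43 and 0.12 in wildtype samples. The samples followed the pool number more than the group, and the difference was 0.09 ± 0.20 (SE, adjusted p = 0.923, 0.648 with the replicate block). Cdkn1c, which encodes the related inhibitor p57, differed by 0.11 ± 0.19. Over the 6 inhibitors measured, 4 were higher and 2 lower, with a median of 0.10. Cdkn2d had the lowest p of them and differed by 0.36 ± 0.12 (SE, adjusted p = 0.555).

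**Figure D4:**
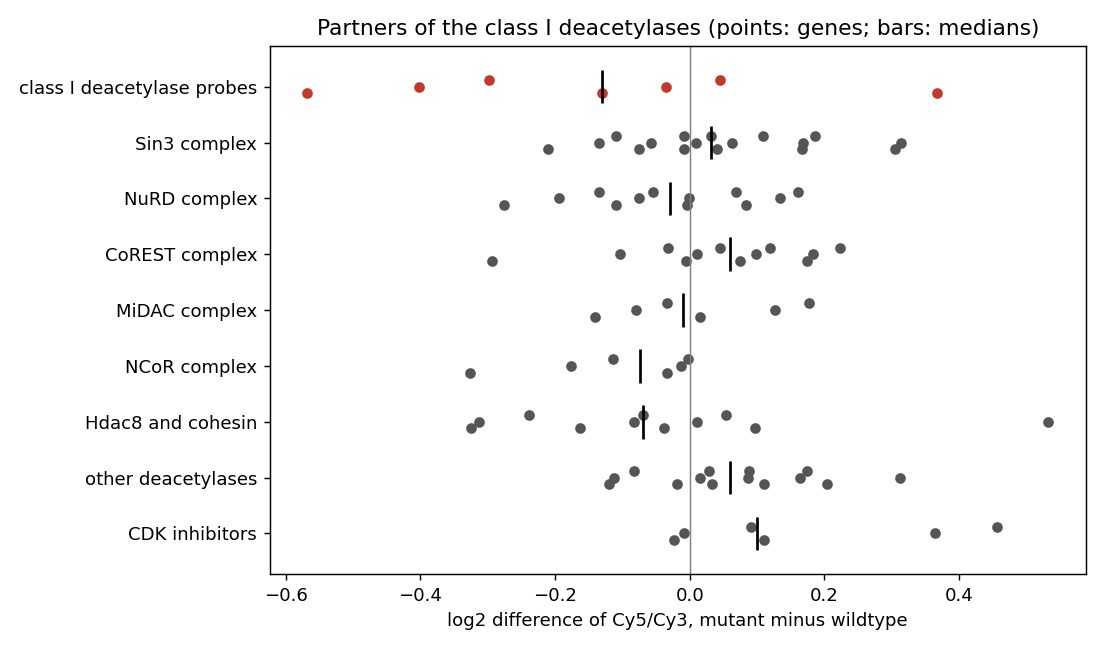
Difference in the ratio (horizontal axis, log2, mutant minus wildtype) of the 7 class I deacetylase probes (red) and of the genes of each partner list (grey, 1 probe per gene), with a bar at the median of each row. The list medians lie between -0.07 and 0.10, and none of the 82 partner genes passed the test.

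Markers of the sorted cells and of other kidney cells were read beside these values. The mean log2 ratio of the 10 progenitor markers was -0.48 to -0.17 on mutant arrays and 0.06 to 0.21 on wildtype arrays. The separation of these means rested on Cited1. Without it, a setting added after the values were seen, the groups overlapped. The mean of the other 9 was then -0.21 to 0.12 on mutant arrays and 0.06 to 0.27 on wildtype arrays. A lower mean in mutant samples was not limited to Cited1: 8 of the 10 markers had one, as did 11223 of 22662 genes. Cited1, a transcriptional co-regulator of the most undifferentiated progenitors, passed the test: its log2 ratio fell by 2.72 ± 0.13 (SE, limma, adjusted p = 0.00279). The mean over 8 stroma markers was 0.20 to 0.43 on mutant arrays and -0.02 to 0.07 on wildtype arrays. All 8 had higher means in mutant samples, with a median difference of 0.29 against 0.0018 over all genes. An unadjusted p under 0.05 in limma was reached by 3 of them, as by 7.24% of all genes, and none of the 8 passed singly. The means of ureteric bud markers (8 genes, -0.17 to 0.20 on mutant and -0.26 to -0.01 on wildtype arrays) and endothelial markers (6 genes, -0.11 to 0.20 on mutant and -0.29 to 0.08 on wildtype arrays) overlapped between groups. So did those of 4 leukocyte markers (-0.37 to 0.26 on mutant and -0.20 to 0.20 on wildtype arrays) and 4 erythroid markers (-0.25 to 0.39 on mutant and -0.26 to 0.12 on wildtype arrays). No marker list had its defining genes at 0, and the part of other cells in the deacetylase values was not tested.

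The nearest protein-coding genes with a value in every sample, on either side of each member in RefSeq (GRCm38.p6, used for gene order only), were read from the same arrays. They were chosen after the values were seen. Cited1 is a direct neighbour of Hdac8, and its level fell in mutant samples as given above, while Hdac8 itself differed by 0.04 on its brighter probe. Phka1, on the other side of Hdac8, differed by 0.24 ± 0.12 (SE, adjusted p = 0.75). The neighbours of Hdac1, Marcksl1 and Lck, differed by -0.15 ± 0.10 and 0.11 ± 0.12, and those of Hdac2, Amd2 and Marcks, by -0.01 ± 0.09 and 0.13 ± 0.09. Rell2, beside Hdac3, differed by 0.72 ± 0.14 (SE, adjusted p = 0.236), and on the other side Pcdhga9 differed by -0.0069 ± 0.09, which is uncertain because clustered protocadherins share exons. Apart from Cited1 no neighbour passed the test.

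The genes whose ratios ran most like each member over the 6 samples were sought among 5887 genes with a symbol, above background on all arrays and with an SD of at least 0.2. The measure was Pearson's r, given as a description, since the samples share slide, reference RNA and pool pairs. Most like Hdac1 were Kazald1 (r = 0.992), the hair keratin Krt36 (r = 0.99) and Egr1 (r = 0.987), an immediate early transcription factor. Kazald1 passed the test, and its log2 ratio fell by 1.64 (adjusted p = 0.0309), while Krt36 differed by -1.02 (adjusted p = 0.172) and Egr1 by -0.61 (adjusted p = 0.222). The Hdac1 ratios separated the groups, so likeness to Hdac1 favours genes that also differ between groups. The differences of Kazald1, Krt36 and Egr1 follow in part from that choice and are no separate result.

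Mutant pool 1 was the extreme sample of Hdac2, Hdac3 and Hdac8, so likeness to these genes weighs that sample most. For Hdac2 they were Jrk, the splicing factor Cdc40 and the linker histone gene H1f5 (r = 0.985 to 0.987), with differences of -0.15, -0.15 and -0.22. For Hdac3 they were Rhbdf2, Arl16 and the long noncoding RNA Kcnq1ot1 (r = 0.995 to 0.996), with differences of 0.26, 0.35 and 0.57. For Hdac8 they were Rnd2, the chemokine receptor gene Ackr3 and Slain1 (r = 0.99 to 0.996), with differences of 0.01, 0.04 and -0.01. None of these 9 genes passed the test.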

How the data were processed

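RNA of 8 Cy5-labelled pools was measured against one Cy3-labelled wildtype RNA on two-colour oligonucleotide arrays. The authors deposited scanner output of Agilent Feature Extraction 10.7.3.1 (submitters' processing notes), which per the file headers gives linear spot intensity, both as median signals with local background and as processed signals. A deposited table of log10 Cy5/Cy3 ratios served as an alternative. All arrays lie on 1 slide of 1 scan, with mutant arrays in one row and wildtype arrays in the other, and slide row cannot be told apart from group.

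In R 4.3.3 with limma 3.58.1, median signals received a normexp background correction (offset of 50) and then loess normalization inside each array. For single-dye levels, Aquantile normalization followed. Control and outlier spots were left out, and spots of a probe were averaged. A group had to have 3 or more of its 4 arrays well above background in Cy5 for a probe to be kept. Accessions were matched to RefSeq gene names, which gave 14989 of the 22662 genes a symbol. Precision is limited by how many arrays there are, since intensities count no molecules.

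Cy5 levels of pools 3 and 4 differed by a median absolute deviation of 0.06 (mutant) and 0.0566 (wildtype), within the 0.045 to 0.0776 between arrays in Cy3, while other pairs differed by 0.109 to 0.347 (5761 probes, without wildtype 2). They were averaged, so 3 samples were compared with 3, where 4 and 4 are labelled. Deviations of same-numbered samples from their group means correlated across 22307 genes (r = 0.495, 0.542 and 0.528), and differently numbered ones at -0.0778 to -0.454. The numbers were therefore taken to pair the samples, from these data and not from a label.

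The test was limma's lmFit and eBayes, two-sided. P-values were adjusted by Benjamini-Hochberg over 22662 genes, and for further probes of a gene over 30364 probes. The method was tested on simulated data. Differences are mutant minus wildtype. Alternatives were the replicate block, 8 separate arrays, leaving out arrays, other background correction, normalization and filters, and trend and robust estimation. Named genes are the probes of the 4 members, core subunits of the partner lists (1 of them is not reported here), the other deacetylases of class II and IV, Cdkn1a, Cdkn1c, Six2, Cited1, Eya1, any list gene that passed, and the 3 genes most like each member. Sap130, Cdkn2d and Esco1 were named after their values were seen. The members and the 14 lists were chosen with earlier results of these data known.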

Additional observations from a re-analysis of the deposited data

Results flagged for a closer look

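Of 21 groups of values of the 7 probes that were searched for a single array far from the others, 3 held one, where chance gives about 1 in 20. On the Hdac8 probe A_52_P464062 the log2 ratio of mutant pool 1 was -0.82, against 0.19 to 0.33 in the other mutant pools. The Cy3 level of the same probe on the wildtype 2 array was 8.33, against 8.76 to 8.96 on the other 7 arrays. The Cy3 level of the Hdac2 probe on the wildtype 2 array was 8.02, against 8.81 to 8.91 on the others. Both Cy3 levels are values after normalization across arrays. Before background correction the wildtype 2 array had the highest Cy3 signal on both probes. That signal was 444.5 on A_52_P464062, against 267 to 337.5 on the other 7 arrays. On the Hdac2 probe it was 392.25, against 270 to 333.5. Cy3 held the same RNA on all arrays.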

How the results depend on the processing

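Hdac1 was lower in mutant samples on its 3 probes under every alternative run (26, 25 and 25). A_66_P128384 passed with 8 separate arrays (-0.41, adjusted p = 0.0265) and as 4 pairs in a replicate block (-0.41, adjusted p = 0.0335), where A_55_P2077608 also passed (-0.57, adjusted p = 0.0453). The replicate block over 3 pairs gave Hdac1 adjusted p of 0.268, 0.229 and 0.235 and changed no call of a member or partner. It raised the genes called to 34, and other settings gave 257 (8 arrays), 744 (4 pairs, a setting chosen after seeing the data, as were those without mutant 1 and wildtype 2 and those that leave out a pair), 5 (trend and robust), 46 (block without the pair of pool 2) and 0 (block without the pair of pool 1 or of pools 3 and 4), against 10. Leaving out replicates gave 1 to 10, with 6 without mutant 1, 4 without wildtype 1 or wildtype 2, 3 without mutant pools 3 and 4, and 1 without wildtype pools 3 and 4.

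The ratio differences of Hdac2, Hdac3 and Hdac8 turned sign in some settings. Hdac2 was 0.036 in the block without the pair of pool 1, and Hdac3 -0.026 without mutant 1 and wildtype 2 and 0.06 to 0.50 when single replicates were left out. Hdac8 A_51_P481191 was 0.012 with 8 arrays and with 4 pairs, 0.0073 with scaling between arrays, 0.29 without mutant 1 and wildtype 2, 0.12 in the block without the pair of pool 1, and -0.18 to 0.21 when replicates were left out. Hdac8 A_52_P464062 was -0.11 in the block without the pair of pool 2, -0.15 without that of pools 3 and 4, 0.41 without mutant 1 and wildtype 2, and -0.14 to 0.40 when replicates were left out. In Cy5, Hdac2 ranged from -0.12 to 0.34 and A_51_P481191 from -0.20 to 0.19 when replicates were left out, and A_51_P481191 was 0.0067 with 8 arrays. The causes were not tested.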
